A study of Mus musculus with 6 samples.

Results

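The circadian clock genes are a set of 10 named transcripts of the mammalian daily oscillator: Clock, Per1, Per2, Per3, Cry1, Cry2, Nr1d1, Nr1d2, Dbp and Tef. A gene entered by its symbol, through the brightest array probe set that carries this symbol and no other. Of the 10 genes 9 were measured in this way, out of 22180 genes in all. The exception was Per2, whose probe set also carries the symbol of another transcript, so no value is given for it. All samples were primary cells from the hippocampus of mouse embryos at embryonic day 18. The cells were infected with AAV1/2, an adeno-associated virus vector, 7 days after seeding, and total RNA was taken 7 days after infection. In 3 samples the vector carried a knockdown construct against Diras2, a brain Ras-family GTPase, and in the 3 control samples a scrambled sequence. Every sample, controls included, was thus virus-infected, and 1 knockdown construct was used, so loss of Diras2 and other effects of that construct cannot be told apart. The labels give no strain, no sex, no time of day for the harvest and no step that sets the cells to a common phase.

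In the mammalian clock the proteins CLOCK and BMAL1 bind E-box DNA as a pair and switch on the Per and Cry genes, whose products then hold that pair back. The same pair drives Nr1d1 and Nr1d2, which encode the REV-ERB nuclear receptors that repress Bmal1 and other targets, and Dbp, which encodes an activator that works at D-box sites. Hippocampal neurons and glia express these genes, and Per1 in particular also answers to neuronal activity through cyclic AMP signalling.

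Promoter sequence is shown for both REV-ERB genes, of which Nr1d2 passed the test and Nr1d1 did not, and for Cry1, Tef and Ciart, which hold E-boxes. The letters are the 250 bases before the annotated transcription start in RefSeq, build GRCm38.p6, read 5′ to 3′ on the gene's strand. The windows are chr14:18239107-18239356 on the minus strand for Nr1d2, chr11:98775378-98775627 minus for Nr1d1, chr10:85185055-85185304 minus for Cry1 and chr15:81802423-81802672 plus for the first of 2 listed Tef starts. For Ciart a 30-base stretch is shown, chr3:95882262-95882291 on the minus strand. Capitals mark a searched motif, the E-box CACGTG or the related E-box-prime CACGTT, which reads AACGTG on the other strand.
Nr1d2: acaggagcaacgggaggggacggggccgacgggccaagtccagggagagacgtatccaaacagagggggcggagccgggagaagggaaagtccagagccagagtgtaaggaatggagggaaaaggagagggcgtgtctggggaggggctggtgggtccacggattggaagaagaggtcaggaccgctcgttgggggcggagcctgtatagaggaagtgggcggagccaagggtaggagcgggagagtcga
Nr1d1: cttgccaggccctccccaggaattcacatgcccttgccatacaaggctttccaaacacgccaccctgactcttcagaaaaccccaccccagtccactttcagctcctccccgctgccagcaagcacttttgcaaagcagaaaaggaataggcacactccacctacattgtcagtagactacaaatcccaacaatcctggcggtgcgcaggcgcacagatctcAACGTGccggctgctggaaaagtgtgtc
Cry1: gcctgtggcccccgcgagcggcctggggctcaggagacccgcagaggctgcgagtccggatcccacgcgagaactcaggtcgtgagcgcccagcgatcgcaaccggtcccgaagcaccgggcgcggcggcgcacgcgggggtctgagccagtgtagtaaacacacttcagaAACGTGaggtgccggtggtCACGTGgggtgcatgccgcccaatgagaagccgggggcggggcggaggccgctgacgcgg
Tef: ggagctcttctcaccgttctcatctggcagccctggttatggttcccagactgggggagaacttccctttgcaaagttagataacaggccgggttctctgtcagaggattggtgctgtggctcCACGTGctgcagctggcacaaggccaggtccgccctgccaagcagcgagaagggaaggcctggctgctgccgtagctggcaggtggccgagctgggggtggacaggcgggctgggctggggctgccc
Ciart: ggaggCACGTGcagaaccgCACGTGtctgg

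The 9 measured clock genes have 13 such windows in the table. The E-box stood in 4 of the 13, from Per1, Cry1 and Tef, and in 6.02% of all 32851 promoter windows of the table. The E-box-prime stood in 3 of the 13, from Cry1, Cry2 and Nr1d1, against 3.85% of all windows. Per3 held the D-box TTATGTAA at 2 places, where 0.931% of windows hold this form or TTACGTAA. The ROR element core TAGGTCA and the cyclic AMP response element TGACGTCA, found in 2.23% and 1.55% of windows, were in no window of the 9 genes. Both strands were searched, and no motif contains another. The windows of Clock, Nr1d2 and Dbp held none of the motifs, which says only that these letters are not in those 250 bases. All windows of Clock, Per1, Per3, Cry2 and Dbp, the second of Tef and that of Ciart overlap the gene's own annotated span. Such windows need not lie upstream of the whole gene. Ciart, a clock repressor outside the set, held the E-box at 3 places, of which the stretch shows the pair nearest the start.

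The array values are log2 RMA levels, so a difference of 1 is a doubling, and levels of different genes are not compared because each probe set has its own response. RNA quality was high throughout, with integrity numbers of 9, 9.3 and 9.2 for the knockdown and of 9.2, 9 and 8.8 for the control. Diras2 itself read 7.17, 6.23 and 6.08 in the knockdown and 10.17, 10.17 and 9.76 in the control. Of 8 neuron markers 4 had a log2 change above 0 and 4 below. Dcx rose, with a change of 0.76 (adjusted p 0.0236 by limma), and Snap25 fell, with -0.51 (0.0471). Tubb3, with a log2 change of 0.39 (adjusted p 0.106 by limma), and Syt1, with -0.58 (0.107), did not pass, though the groups of each did not overlap. Rbfox3 averaged 8.69 in the knockdown and 8.71 in the control, and Map2 11.15 in the knockdown and 11.25 in the control. Without detection calls, whether a marker lay above background was not tested. With 3 arrays per group the number of arrays limits the precision, and an exact permutation test of a single gene cannot give a two-sided p below 0.1. The samples are labelled as biological replicates, and no culture or litter is named for them, so the spread behind each p-value is that of these samples and may be partly technical.

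Clock and Nr1d2 rose on Diras2 knockdown, 2.73-fold and 1.68-fold, and were the 2 of 9 clock genes that passed the test across all genes (limma, Benjamini-Hochberg adjusted p under 0.05). Dbp, with the next largest difference, and Cry2, the lowest, missed that threshold but passed when arrays were paired by replicate number. That pairing was taken from these same values and not from the labels, so a pass with it is no independent support. Per1, Per3, Cry1, Nr1d1 and Tef did not pass in either fit. Of all genes tested 4.17% rose and 3.64% fell by limma, and 6.05% and 5.64% with the arrays paired. No clock gene fell without the pairing. At an unadjusted p under 0.05, 3 of the 9 were higher and 1, Cry2, was lower, as were 10.9% and 10.0% of all genes. The median log2 change was 0.19 over the 9 genes and 0.00 over all genes tested, with 7 of the 9 above 0. The groups did not overlap for 5 of the 9. In 4 of these the knockdown was higher, as in 13.4% of all genes, and in 1 it was lower, as in 12.1%.

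**Figure D1:**
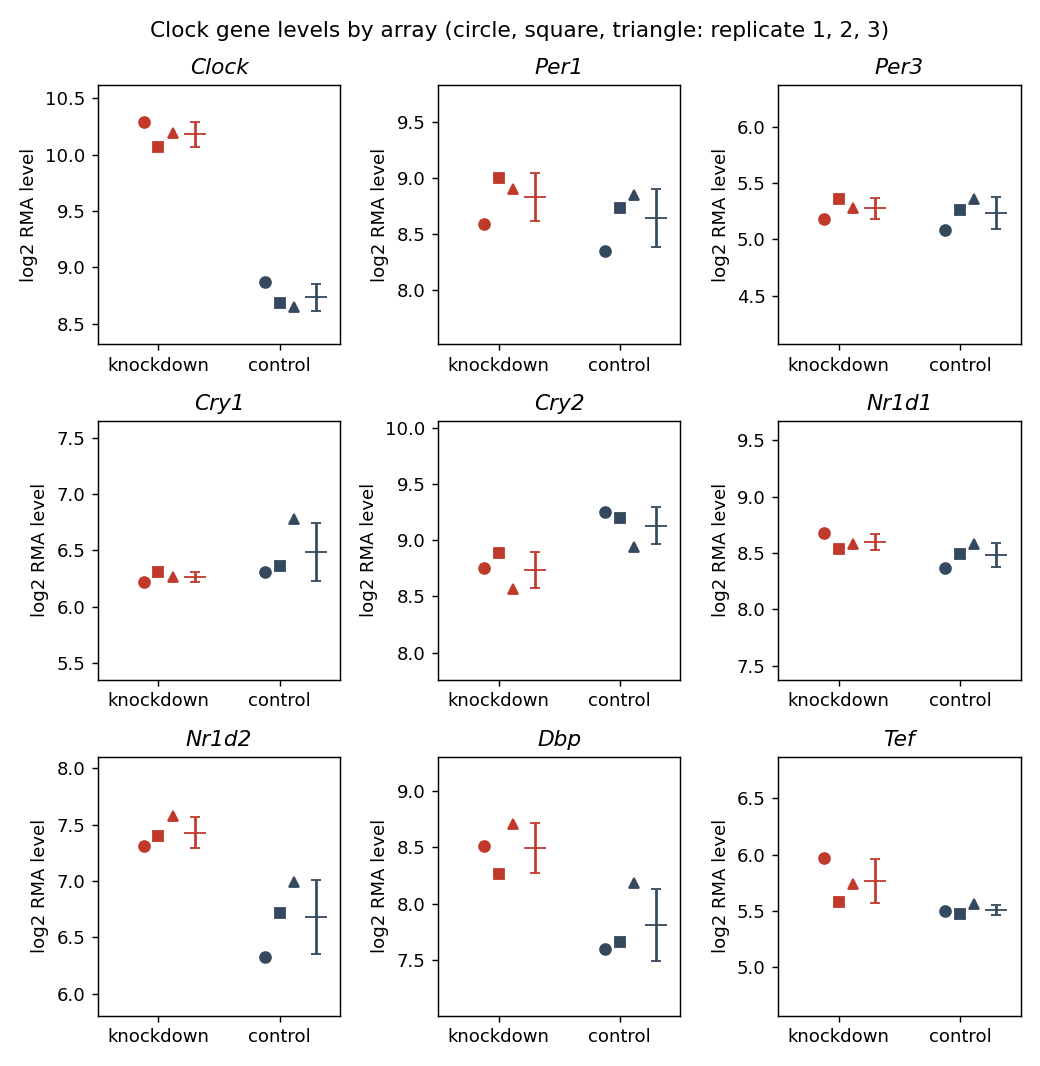
Log2 RMA level (y axis, each panel spanning the same log2 range) of the 9 measured clock genes in the 3 knockdown arrays (left, red) and the 3 control arrays (right, blue-grey). Symbols mark replicate numbers and bars the mean ± SD. The 3 knockdown values of Clock, 10.07 to 10.29, lie far above its 3 control values, 8.65 to 8.87, while those of Per3 and Per1 overlap.

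Clock encodes the histone-acetylating partner of BMAL1 in the activating pair. It read 10.29, 10.07 and 10.19 in the knockdown arrays and 8.87, 8.68 and 8.65 in the control arrays. The 3 knockdown values sit closely together and well above every control. Their means were 10.18 ± 0.11 and 8.73 ± 0.12 (SD, n = 3 each), a log2 change of 1.45 (SE 0.11, 95% interval 1.20 to 1.70) at an adjusted p of 0.00063 by limma. By size of increase Clock ranked 53 among the 924 genes that rose. Within the same-numbered pairs the differences were 1.42, 1.39 and 1.54. Leaving out each array in turn kept the difference between 1.40 and 1.52 and the adjusted p at 0.00778 or lower.

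Neither Arntl nor Npas2 showed a rise of this kind. Arntl, the gene of BMAL1, read 8.49, 8.37 and 8.12 in the knockdown and 8.71, 8.64 and 8.61 in the control, so that the groups did not overlap. Its log2 change was -0.33 (SE 0.12) at an adjusted p of 0.156 by limma. Npas2, which encodes a brain relative of CLOCK that can take its place beside BMAL1, had a log2 change of 0.23 (SE 0.20) and an adjusted p of 0.613. The change of Clock exceeded that of Arntl by 1.78 (SE 0.12) and that of Npas2 by 1.22 (SE 0.35) on the log2 scale, and in both cases the within-array ratios of the groups did not overlap. Both gave an exact two-sided permutation p of 0.1, or 0.2 adjusted over the 6 gene pairs compared in this way. All 6 pairs were chosen after the values were seen, with Clock already known as the largest change of the set. The adjustment does not allow for that choice.

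Genes whose arrays followed Clock most closely were Dram2, Unc80 and Prkg1, with Pearson correlations of 0.9993, 0.9984 and 0.9981 over the 6 arrays. Of the 11084 genes searched, 1106 had a correlation above 0.9 with Clock, and the 6 points fall into 2 groups that differ for all these genes. The genes on either side of Clock in the RefSeq order were looked at after its rise was seen. Of the 3 nearest measured neighbours on each side, Tmem165, Kdr, Pdcl2, Nmu and Exoc1 had log2 changes between -0.15 and 0.08, none of which passed. Srd5a3, a reductase needed for protein glycosylation and the second neighbour on one side, fell to 6.31 ± 0.03 in the knockdown, against 7.32 ± 0.24 in the control (SD, n = 3 each), a log2 change of -1.01 at an adjusted p of 0.00376 by limma.

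Nr1d2 encodes REV-ERB beta, a repressor of the loop. It read 7.31, 7.40 and 7.58 in the knockdown and 6.33, 6.72 and 6.99 in the control. Every knockdown array was above every control array, and the controls were the more spread. The means were 7.43 ± 0.14 and 6.68 ± 0.33 (SD, n = 3 each), a log2 change of 0.75 (SE 0.17, 95% interval 0.36 to 1.14) at an adjusted p of 0.0349 by limma. The pairs differed by 0.98, 0.68 and 0.59, and with the replicate block the adjusted p was 0.00897. The call was lost without knockdown replicate 1 (adjusted p 0.0607), knockdown replicate 2 (0.111), knockdown replicate 3 (0.124), control replicate 1 (0.0527) and control replicate 2 (0.113), with differences of 0.58 to 0.81. Without control replicate 3 it was kept, at 0.0169.

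Nr1d1, which encodes REV-ERB alpha, the close relative of REV-ERB beta, read 8.68, 8.54 and 8.58 in the knockdown and 8.37, 8.49 and 8.58 in the control. The groups met at 8.58, the value of replicate 3 in both. The log2 change was 0.12 (SE 0.10, 95% interval -0.11 to 0.35) at an adjusted p of 0.589. The interval leaves room for a rise of up to 0.35, less than the measured difference of Nr1d2. The ratio of Nr1d2 to Nr1d1 within an array was higher in every knockdown array than in any control array, and the difference between their changes was 0.63 (SE 0.17), with an exact two-sided permutation p of 0.1, or 0.2 adjusted over the 6 gene pairs. The 3 genes most like Nr1d2 over the 6 arrays were Ankrd6, Rnasek and D630041G03Rik, with correlations of 0.9991, 0.9980 and 0.9974, and 467 of the 11084 genes searched had one above 0.9. None of the 3 passed the test by limma (adjusted p 0.0544, 0.200 and 0.0597), while Ankrd6 and D630041G03Rik did with the replicate block (0.0228 and 0.0259).

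Dbp and Tef encode activators of the PAR bZIP family that read the clock out at D-boxes. Dbp read 8.51, 8.26 and 8.71 in the knockdown and 7.60, 7.66 and 8.18 in the control. Control replicate 3 came close to the lowest knockdown value, but the groups did not overlap. The means were 8.49 ± 0.23 and 7.81 ± 0.32 (SD, n = 3 each), a log2 change of 0.68 (SE 0.18, 95% interval 0.26 to 1.10) and a ratio of 1.60, at an adjusted p of 0.0615 by limma. The pairs differed by 0.91, 0.60 and 0.53. With the replicate block the adjusted p was 0.0126, and without control replicate 3 it was 0.0181. Across the other 5 arrays left out in turn it ran from 0.0870 to 0.208.

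Tef read 5.97, 5.58 and 5.74 in the knockdown and 5.50, 5.47 and 5.56 in the control, so its groups were separated by 0.02 only. The log2 change was 0.25 (SE 0.12, 95% interval -0.02 to 0.53) at an adjusted p of 0.282. A dimmer second probe set of Tef, with a mean of 3.73 over all arrays, had a log2 change of -0.12, and the mean of both probe sets one of 0.07. The change of Dbp exceeded that of Tef by 0.43 (SE 0.20), with an exact two-sided permutation p of 0.2, or 0.3 adjusted over the 6 gene pairs. Hlf, the third gene of this family, had a log2 change of 0.45 (SE 0.16), an adjusted p of 0.140 and groups that did not overlap.

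**Figure D2:**
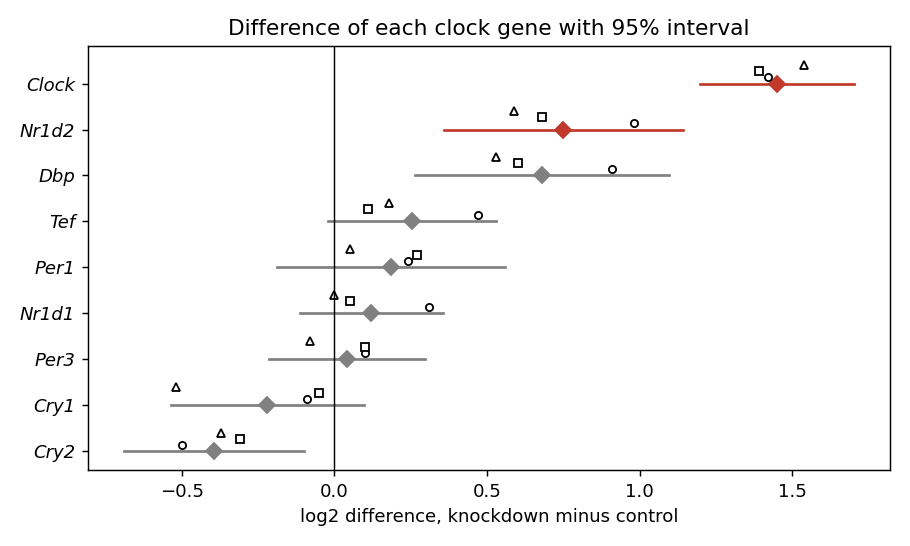
Log2 difference, knockdown minus control (x axis), of the 9 measured clock genes, with diamonds for the difference and lines for its 95% interval, red where the adjusted p was under 0.05. Small open symbols give the difference within each same-numbered pair (circle, square and triangle for replicates 1, 2 and 3). Clock at 1.45 stands apart from Nr1d2 and Dbp at 0.75 and 0.68, and Cry2 lies lowest at -0.39.

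The cryptochromes, the stronger repressors of the CLOCK and BMAL1 pair, both had negative differences. Cry2 read 8.75, 8.89 and 8.57 in the knockdown and 9.25, 9.20 and 8.94 in the control. Each knockdown array was below its same-numbered control, by 0.50, 0.31 and 0.37, and the groups did not overlap, with knockdown replicate 2 only 0.05 below control replicate 3. The means were 8.74 ± 0.16 and 9.13 ± 0.17 (SD, n = 3 each), a log2 change of -0.39 (SE 0.13, 95% interval -0.69 to -0.10). The adjusted p by limma was 0.118, and 0.0460 with the replicate block.

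Cry1 read 6.22, 6.31 and 6.26 in the knockdown and 6.31, 6.36 and 6.78 in the control. Control replicate 3 stood above the rest, and without it the log2 change of -0.22 (SE 0.14, 95% interval -0.54 to 0.10) became -0.07. The adjusted p was 0.433 with all arrays and 0.795 without that one. The changes of Cry2 and Cry1 differed by -0.17 (SE 0.26), with an exact two-sided permutation p of 0.6, also when adjusted over the 6 gene pairs.

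The period genes encode the scaffold of the repressor complex. Per1 and Per3, together with Nr1d1, had the smallest differences of the set, and Per2 had no value. Per1 read 8.59, 9.00 and 8.90 in the knockdown and 8.35, 8.73 and 8.85 in the control. Replicate 1 was the lowest array of its group in both, and the groups overlapped. The log2 change was 0.19 (SE 0.16, 95% interval -0.19 to 0.56) at an adjusted p of 0.600, and dropping control replicate 1 gave 0.04, dropping knockdown replicate 1 gave 0.31. Per3 read 5.18, 5.36 and 5.28 in the knockdown and 5.08, 5.26 and 5.36 in the control. Its log2 change was 0.04 (SE 0.11, 95% interval -0.22 to 0.30) at an adjusted p of 0.890, and its sign turned without knockdown replicate 2 or control replicate 1. Replicate 1 was again the lowest array of each group. The change of Per1 exceeded that of Per3 by 0.15 (SE 0.10), with an exact two-sided permutation p of 0.3, or 0.36 adjusted over the 6 gene pairs.

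Further genes of the clock, its inputs and its outputs were grouped into 6 lists, with 60 distinct measured genes. Of these, 3 rose, 5 fell and 52 did not pass. The lists for cyclic AMP inputs and for the glucocorticoid response, with 12 measured genes each, are not clock genes proper. The counts over the 60 are thus not of clock genes alone. Some genes stand in more than 1 list. The median log2 change of the 60 genes was -0.05, against 0.00 over all genes tested. For the counts below, 4.17% of all genes tested rose and 3.64% fell by limma. With the replicate block 6.05% rose and 5.64% fell. An unadjusted p under 0.05 was reached by 10.9% that were higher and 10.0% that were lower.

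Of the other repressors and D-box factors, 1 of 6 rose and 1 fell, with or without the replicate block, and the list median was 0.13. An unadjusted p under 0.05 was reached by 2 that were higher and 1 that was lower. Ciart encodes CHRONO, a repressor that binds BMAL1. It read 6.73, 6.34 and 6.18 in the knockdown and 5.35, 5.51 and 5.39 in the control. All knockdown arrays lay far above the tight controls, with a log2 change of 1.00 (SE 0.15) and an adjusted p of 0.00624 by limma, and the call was kept without each array in turn (0.0103 to 0.0303). Bhlhe40, which encodes DEC1, a repressor that binds E-boxes, read 7.13, 6.85 and 7.05 in the knockdown and 7.45, 7.54 and 7.55 in the control, a log2 change of -0.50 (SE 0.11) at an adjusted p of 0.0283. That call was lost without knockdown replicate 2 (0.10), knockdown replicate 3 (0.0819), control replicate 2 (0.113) and control replicate 3 (0.0720). Nfil3, which encodes the repressor that competes with DBP at D-boxes, had a log2 change of -0.44 and an adjusted p of 0.400.

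Among Arntl, Arntl2, Npas2, Rora and Rorb, the activators and ROR receptors with a probe set of their own, 0 of 5 rose or fell by limma, with or without the replicate block, and their median was -0.07. At an unadjusted p under 0.05, 1 was higher and 1 lower. Rora, a receptor that activates Bmal1 at the sites where REV-ERBs repress it, had a log2 change of 0.39 (SE 0.12) and an adjusted p of 0.0993. Rorb, its relative in brain, had a log2 change of -0.73 (SE 0.34) and an adjusted p of 0.272. Its control values of 6.84, 7.54 and 8.38 were widely spread, and the difference was -1.10 without control replicate 1 (adjusted p 0.0424), -0.33 without control replicate 3 (0.498) and -0.40 with the RNA integrity number as covariate (0.646).

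Of 14 measured kinases, ubiquitin ligases and cofactors that act on PER and CRY, 1 rose and 0 fell, with a median of 0.14. At an unadjusted p under 0.05, 3 were higher and 1 lower, and with the replicate block 2 rose and 0 fell. The 1 that rose without the block was Ciart, which is counted here too under an older symbol. Cul4a, a scaffold of ubiquitin ligases, had a log2 change of 0.45 (SE 0.12) and an adjusted p of 0.0586, or 0.0260 with the replicate block. Csnk1e, a casein kinase that marks PER for degradation, had a log2 change of -0.36 (SE 0.10) and an adjusted p of 0.0695, with knockdown values of 8.03, 8.04 and 8.02 and control values of 8.45, 8.26 and 8.45. Timeless, a replication fork gene related to the fly clock gene, had a log2 change of 0.31 and an adjusted p of 0.162.

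Genes that carry or restrain cyclic AMP signals to the Per promoters had the lowest list median, -0.21. Of these, 9 of 12 lay below 0, but 0 rose or fell by limma. As the list mixes both kinds, its median does not give a direction of the signal. At an unadjusted p under 0.05, 3 were lower and 0 higher, and with the replicate block 2 fell. Sik1, a kinase that restrains CREB coactivators, read 6.83, 7.19 and 7.20 in the knockdown and 7.41, 8.23 and 8.56 in the control. Its log2 change was -0.99 (SE 0.27) at an adjusted p of 0.0657, which was 0.0104 with the replicate block. When single arrays were left out the difference ran from -1.32 to -0.75, with an adjusted p of 0.00532 without control replicate 1 and of up to 0.211 without the others, and the RNA integrity covariate gave 0.237. Its relative Sik3 had a log2 change of -0.49 at an adjusted p of 0.157, or 0.0281 with the block, and Sik2 one of 0.22 with 0.294. Crebbp, a histone acetyltransferase and coactivator of CREB, had a log2 change of -0.39 and an adjusted p of 0.0831.

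Glucocorticoids are another input to Per1, and of 12 genes listed for the response to them, including their receptor gene Nr3c1, 1 rose and 2 fell, with a median of 0.05. Sgk1, a kinase, had a log2 change of -0.95 (SE 0.16) and Fkbp5, a chaperone partner of the receptor, one of -0.69 (SE 0.12), with adjusted p-values of 0.0110 and 0.0132 by limma. Ddit4, an inhibitor of mTORC1, rose by 0.84 (SE 0.16) at an adjusted p of 0.0189, and Tsc22d3, which encodes the glucocorticoid-induced leucine zipper, had 0.39 with 0.0896. The list thus held called members in both directions. Counted at an unadjusted p under 0.05, 2 were higher and 2 lower, and with the replicate block 1 rose and 3 fell. Sgk1 lost its call without control replicate 2 (0.0598), Fkbp5 without knockdown replicate 2 or 3 (0.0595 each), and Ddit4 when knockdown replicate 1 (0.0544), knockdown replicate 2 (0.0833) or control replicate 2 (0.0848) was left out.

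Of 16 genes listed as outputs of the clock, 5 were higher and 5 lower at an unadjusted p under 0.05. Of all genes tested 10.9% and 10.0% were. With the replicate block 3 rose and 3 fell. Without it 2 rose and 3 fell by limma, with a list median of -0.02. Besides Ciart and Bhlhe40 these were Dtx4, a ubiquitin ligase, which rose by 0.58 (SE 0.11), Rev3l, the catalytic subunit of a translesion DNA polymerase, with a difference of -0.70 (SE 0.11), and Ppargc1a, a coactivator of mitochondrial genes, with -0.79 (SE 0.15). The adjusted p-values by limma were 0.0164 for Dtx4, 0.00702 for Rev3l and 0.0204 for Ppargc1a. Rev3l kept its call without each array in turn. Dtx4 no longer passed when knockdown replicate 2 (0.0526), knockdown replicate 3 (0.0703) or control replicate 2 (0.0788) was left out. Ppargc1a no longer passed when the array removed was replicate 1 (0.0573) or 2 (0.0721) of the knockdown or replicate 2 (0.0927) or 3 (0.0528) of the control.

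**Figure D3:**
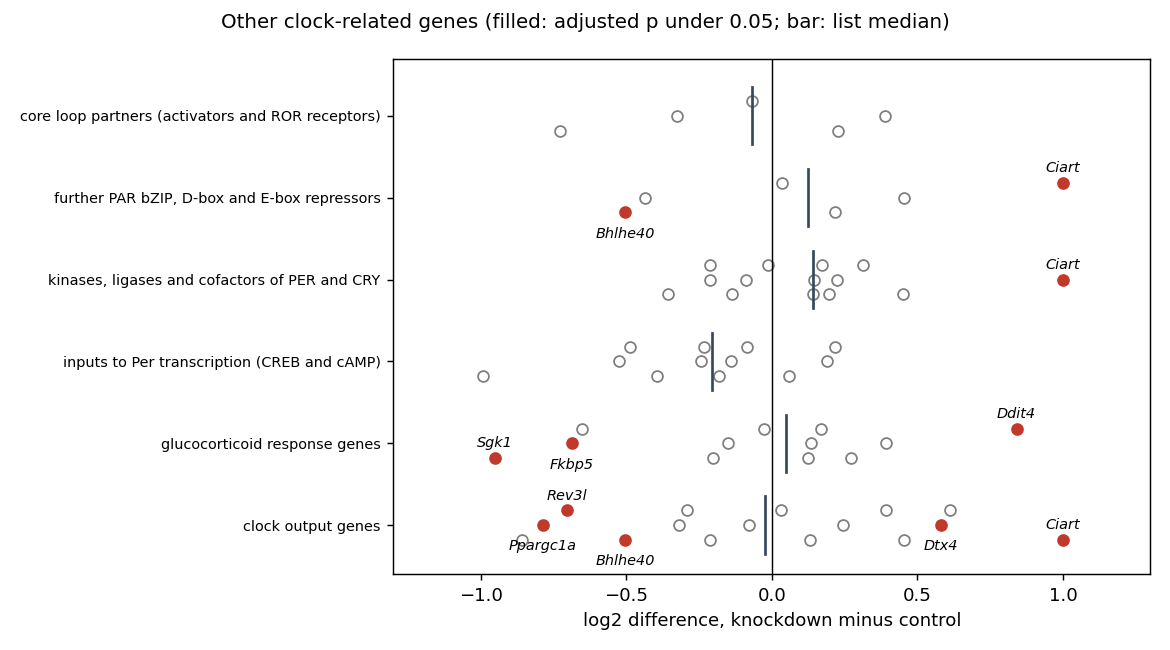
Log2 difference, knockdown minus control (x axis), of the measured genes of 6 lists of clock-related genes (rows), filled and named where the adjusted p was under 0.05, with a bar at each list's median. Ciart at 1.00 lies farthest right, and the medians of the lists run from -0.21 to 0.14.

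Markers of other cells in the culture give the setting of these values. None of 8 astrocyte, 8 microglial, 6 endothelial or 6 fibroblast and meningeal markers passed the test by limma, and 1, 2, 0 and 1 of them, all lower, had an unadjusted p under 0.05. Of 8 neuron markers Dcx rose and Snap25 fell, of 6 inhibitory neuron markers Lhx6 fell, and of 7 oligodendrocyte lineage markers Pdgfra rose. Over all genes tested 4.17% rose and 3.64% fell, and 10.0% were lower at an unadjusted p under 0.05. The share that fell with the replicate block was 5.64%. With the replicate block 3 inhibitory neuron markers fell, Lhx6, Dlx2 and Sst, as did 2 neuron markers, Snap25 and Syt1, and 1 astrocyte, 1 microglial and 1 fibroblast marker. The median log2 change of the inhibitory neuron markers was -0.52, with 5 of 6 below 0. The log2 of the summed astrocyte markers ran from 11.4 to 11.8 in the knockdown and from 11.6 to 11.7 in the control. For inhibitory neurons, replicates 1 to 3 gave 11.6, 12.6 and 12.3 in the knockdown and 12.2, 13.1 and 13.2 in the control. For neurons as a whole they gave 14.6, 14.6 and 14.4 in the knockdown and 14.8, 14.7 and 14.5 in the control. In both lists each knockdown sum was below its same-numbered control, while the astrocyte sums went both ways. The brightest probe sets weigh most in such a sum, as Sst, at up to 12.77, does for inhibitory neurons. The part of cell makeup in the clock gene values was not tested, and in bulk RNA fewer cells of a type cannot be told apart from less RNA per cell.

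**Figure D4:**
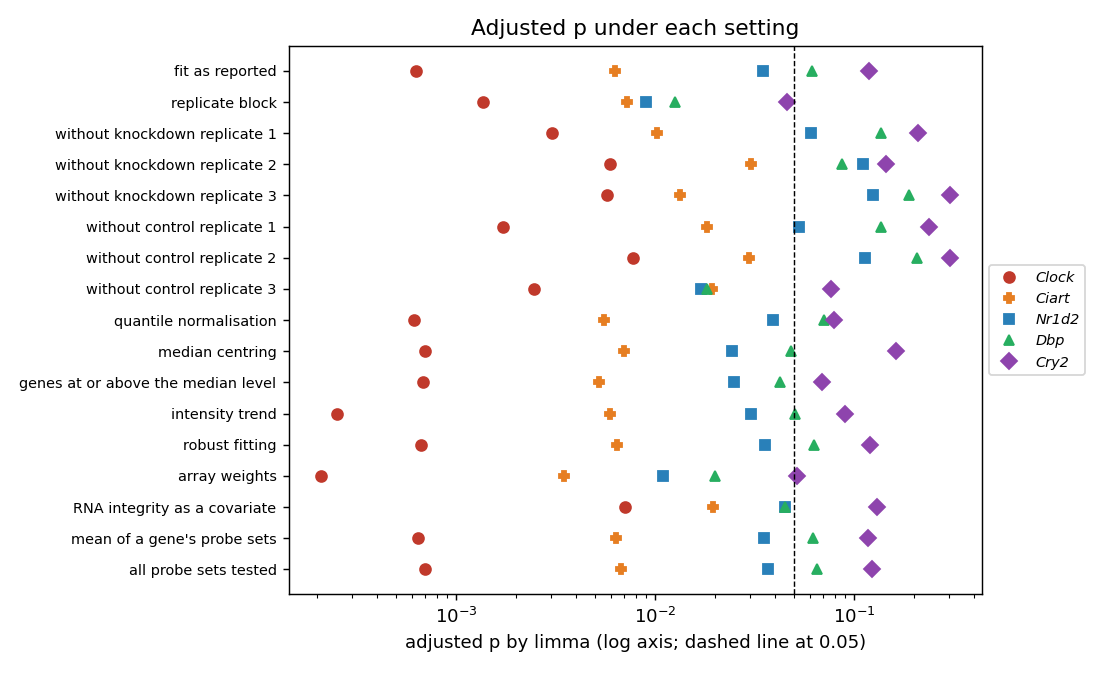
Adjusted p by limma (x axis, log scale, dashed line at 0.05) of Clock, Ciart, Nr1d2, Dbp and Cry2 in the fit as reported and under 16 other settings (rows). Clock and Ciart stay left of the line in every row, Nr1d2 crosses it in 5 rows that leave out 1 array, and Cry2 lies left of it only with the replicate block.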

How the data were processed

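Total RNA of 6 samples was read on 1 Affymetrix array each, after amplification and labelling with whole-transcript kits, per the labels' protocols. The authors deposited log2 RMA levels, 1 per probe set, and the submitters' processing notes name Affymetrix Expression Console, version 1.2.1.20. RMA puts the probe-level signals of all arrays on 1 distribution, so a shift shared by most genes would be hidden. The medians of the deposited probe set values still ran from 4.03 to 4.11 over the arrays. Probe-level signals and detection calls were not used here, so whether a level lay above background was not tested.

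Of 41345 probe sets 23521 carry 1 gene symbol and 1814 several. Each of 22180 genes was represented by its brightest single-symbol probe set over all 6 arrays. Knockdown minus control was fitted with limma 3.58.1 (R 4.3.3, lmFit and eBayes) over all genes with Benjamini-Hochberg adjustment, and called at an adjusted p under 0.05. The procedure was tested on simulated data. Exact permutation tests used scipy 1.17.1. Deviations from group means correlated at 0.43, 0.12 and 0.37 within the 3 same-numbered pairs, above the bound of 0.1. An alternative fit, the replicate block, therefore paired the samples by number, from the data and not the labels. The reported fit had no pairing term, so its calls, SEs and intervals leave the pairing out. The SE of Per1 was 0.162 in the reported fit and 0.0979 with the block, and that of Nr1d1 0.102 and 0.105. Dbp and Cry2 passed with the block but not in the reported fit.

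The members and lists were chosen with earlier results of these data known. The text names Diras2, all measured members, the called genes of each list with at least 4 by smallest p, and the 3 genes most correlated with each called member. Gene pairs, Clock's neighbours and the cell markers named were added after values were seen. Figures were drawn with matplotlib 3.10.9. Proteins were not compared, as no protein sequences were used here.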

Additional observations from a re-analysis of the deposited data

How the results depend on the processing

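Clock rose and passed the test under all 16 alternatives to the fit, with adjusted p-values from 0.00021 to 0.00778. The number of clock genes that rose was 2 with all arrays, ran from 1 to 3 when single arrays were left out, and was 1 at an adjusted p under 0.01. With the replicate block it was 3, and 1 clock gene, Cry2, fell where 0 did otherwise. Dbp passed with the replicate block, without control replicate 3, with median centring (0.0482), among genes at or above the median level (0.0425), with array weights (0.0201) and with the RNA integrity number as covariate (0.0448). Per3, at 0.04, ranged from -0.037 to 0.10 when single arrays were left out, and was below 0 without knockdown replicate 2 (-0.0033) or control replicate 1 (-0.037). Over all genes 924 rose and 807 fell. These counts were 1341 and 1252 with the replicate block, 1401 and 1302 with array weights, 402 and 356 with the RNA integrity covariate, 1354 and 1238 at an adjusted p under 0.1 and 354 and 290 at 0.01. When single arrays were left out they ran from 383 to 800 and from 306 to 687, lowest without control replicate 2. That covariate also ended the calls of Bhlhe40 (0.126), Sgk1 (0.0584), Ddit4 (0.0841), Dtx4 (0.0533) and Ppargc1a (0.0966). Pairing by the replicate block brought past the threshold Cry2, Dbp, Cul4a, Sik1, Sik3, Ankrd6, D630041G03Rik and the markers Dlx2, Sst and Syt1, and changed the call of no other gene named. A fit that leaves out an array has 1 residual degree of freedom fewer, and the cause of the other changes was not tested. Without detection calls, how far signal over background limits any gene was not tested.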
